A study of Mus musculus with 36 samples.

Results

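The period genes Per1, Per2 and Per3, the cryptochrome genes Cry1 and Cry2, and Ciart (also called Chrono) are the transcriptional repressors of the mammalian circadian clock, and their RNA was followed in mouse lungs after a single dose of graphene oxide sheets. They were taken by gene symbol and Ensembl identifier, 6 of 46078 genes in the count table, and all 6 passed the filter on low counts that left 16903 genes for testing. The libraries came from lungs of female wild-type C57BL/6 mice given 50 μg of graphene oxide, a sheet-like carbon nanomaterial, dropped into the nostrils once under anaesthesia as material US, S or L, or the 5% dextrose carrier alone, D (0 μg). By its design text, the study asked if sheets of larger lateral size harm the lung more; the labels used here do not spell out the letters. Groups were US, S, L and D at day 1 (mice aged 9 weeks), day 7 (10 weeks) and day 28 (13 weeks), and each of these 12 groups had 3 libraries (n = 3 for every mean). The labels give 4 to 5 animals per group, with pieces of every lobe taken for RNA, but do not say that each library is a separate mouse, so a p-value speaks of the spread among libraries, which may be technical. The genes were chosen with differences from D in these data known, Per2 and Per3 in US lungs at day 7 among them. Those 2 differences are given as a description without a p-value, and the counts of genes below are a description too. The other p-values come from the same data and may not be independent of that choice.

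The clock of mammalian cells is a feedback loop. ARNTL (BMAL1) pairs with CLOCK or NPAS2 and switches on Per, Cry and Ciart genes through E-box sequences, the PER and CRY proteins return to the nucleus as a complex and block that pair, and CIART binds ARNTL and represses it too. REV-ERB proteins (Nr1d1, Nr1d2) repress Arntl, Npas2 and Cry1, and DBP, TEF and HLF act on Per genes through D-box sequences. Per1 and Per2 also answer to outside signals such as glucocorticoids and cAMP. In lung, as in other organs, the RNA of these genes cycles over the day, each with its own peak time. Mice were kept on 12 h of light and 12 h of darkness, with lights on from 7 am to 7 pm. The hour at which each lung was taken is not given in the sources used here, and its part in the values below was not tested.

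Total counts were 16154696 to 23808264 in 35 libraries and 80566751 in S day 7 replicate 2. Markers of alveolar type 1 and 2 cells, club cells, endothelium and macrophages were detected in all 36 libraries. At day 1, US replicate 1, S replicate 1 and L replicate 3 each stood apart from the other libraries of their group. The chi-square per degree of freedom over genes was 63.7 and 52.4 for US replicate 1 with the other US libraries, against 24.8 between those. It was 48.6 and 58.0 for L replicate 3, against 11.3 between the other L libraries. For S replicate 1 it was 22.4 and 32.6, against 6.19 between the other S libraries. Later days were uneven too. At day 7 it was 44.2 and 34 for D replicate 3, against 18.45 between the others, and 27.5 and 38.85 for US replicate 2, against 14.6. At day 28 it was 23.8 and 25.1 for US replicate 3 (against 7.68), 19.7 and 15.2 for S replicate 3 (6.16), and 22.0 and 17.55 for L replicate 2 (6.82). In alternative fits each library of every day was left out in turn. US day 1 replicate 1 had a summed 3068 CPM (counts scaled to the library total) over 14 glucocorticoid-induced genes, against 961 and 1073 CPM in the other US libraries of that day and 1343 to 1490.0 CPM in D libraries, and 644 CPM over 9 neutrophil markers, against 206 and 259 CPM. Results at day 1 in US and L lungs are therefore given with and without US replicate 1 and L replicate 3. Those of S lungs are given without S replicate 1 only for Per3, Cry1 and the share of all genes. In bulk lung, fewer cells that express a gene and less RNA per cell cannot be told apart.

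In GRCm38 coordinates from the deposited tables, with each span covering the whole gene with its exons and introns, Per1 lies at chr11:69095217-69109960 on the plus strand. The other 5 lie on minus strands: Per2 at chr1:91415982-91459324, Per3 at chr4:151003652-151044665, Cry1 at chr10:85131702-85185054, Cry2 at chr2:92403646-92434043 and Ciart at chr3:95878503-95882251. Per3 lies wholly inside the span of Camta1 on the same strand, and Camta1 stayed between 13.0 and 18.9 CPM in all 36 libraries. Cry2 overlaps D930015M05Rik (at most 0.181 CPM) and Ciart overlaps C920021L13Rik (0.252 to 1.21 CPM), both on the opposite strand. The kit marks strand, but how strand was handled in counting is not stated, which leaves the origin of reads in these overlaps uncertain.

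Promoters are shown for Per3 and Cry1, whose RNA gave the clearest differences below, and for Ciart as the one with most E-boxes among the windows searched. Each window runs from 250 bases before to 50 bases after the annotated start (RefSeq, GRCm38.p6), written 5′ to 3′ on the gene's strand, with motif matches in capitals. RefSeq windows were matched for 5 of the 6 genes, and Per2 was not matched.
Per3, chr4:151044616-151044915, minus strand: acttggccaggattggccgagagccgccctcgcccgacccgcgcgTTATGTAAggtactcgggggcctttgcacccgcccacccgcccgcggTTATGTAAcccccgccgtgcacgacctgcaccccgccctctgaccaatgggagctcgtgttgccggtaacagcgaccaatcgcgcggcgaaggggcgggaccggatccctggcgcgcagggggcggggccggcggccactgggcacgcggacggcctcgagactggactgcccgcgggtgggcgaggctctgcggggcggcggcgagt
Cry1, chr10:85185005-85185304, minus strand: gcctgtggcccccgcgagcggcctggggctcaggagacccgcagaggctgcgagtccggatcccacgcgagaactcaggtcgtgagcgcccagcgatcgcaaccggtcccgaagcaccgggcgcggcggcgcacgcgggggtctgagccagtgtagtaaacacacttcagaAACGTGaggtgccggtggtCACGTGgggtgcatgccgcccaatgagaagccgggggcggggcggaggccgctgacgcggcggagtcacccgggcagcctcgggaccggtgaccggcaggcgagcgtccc
Ciart, chr3:95882179-95882478, minus strand: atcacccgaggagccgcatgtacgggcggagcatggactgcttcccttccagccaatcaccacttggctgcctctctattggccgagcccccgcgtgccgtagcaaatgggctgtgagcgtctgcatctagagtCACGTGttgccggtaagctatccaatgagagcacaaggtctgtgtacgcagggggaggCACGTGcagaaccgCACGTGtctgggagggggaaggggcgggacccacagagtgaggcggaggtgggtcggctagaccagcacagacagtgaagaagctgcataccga
The motifs were searched on both strands: the E-box CACGTG, an E-box variant spelled CACGTT, the D-box TTATGNAA, the cAMP response element TGACGTCA and the REV-ERB element TAGGTCA. No match of one motif overlapped a match of another in the windows shown. Across all 32851 RefSeq windows of this length, 7.15% held CACGTG, 4.68% CACGTT, 3.38% TTATGNAA, 1.79% TGACGTCA and 2.61% TAGGTCA. In Per3 the D-box letters TTATGTAA began 205 and 158 bases before the start. In Cry1 the E-box began 60 bases and the variant (read on the opposite strand, as AACGTG) 79 bases before the start, and in Ciart the 2 nearest E-boxes began 58 and 44 bases before it, with another farther upstream. Per1 has 2 annotated windows: the first held an E-box 166 bases and a D-box (TTATGCAA) 24 bases before its start, and the second held none of the 5. Cry2 held 1 variant E-box, 166 bases before its start. A match is a string of letters and not a shown binding site.

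**Figure D1:**
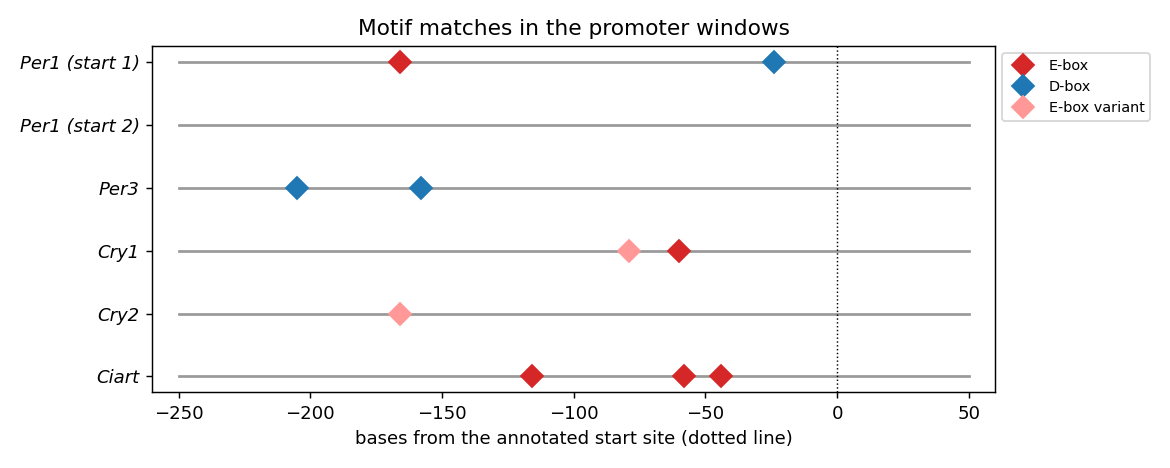
Positions of motif matches in the promoter windows of Per1 (2 annotated starts), Per3, Cry1, Cry2 and Ciart; the x axis is the distance in bases from the annotated start (dotted line), grey lines are the windows and diamonds the first base of each match. Per3 carries 2 D-box matches, Ciart 3 E-boxes, and the second Per1 window no match.

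All 6 genes were expressed in every library. On the TPM scale, which accounts for transcript length and so allows levels of different genes to be compared, Cry2 was the highest of the 6 in 32 of 36 libraries (median 31.0 TPM) and Per2 the lowest in 17 (median 7.39 TPM). Per1 had a median of 17.6 TPM, Per3 10.8 TPM, Cry1 10.3 TPM and Ciart 10.3 TPM. Their spread over libraries differed: the highest library exceeded the lowest by 12.1-fold in CPM for Per1, 9.51-fold for Per2, 6.22-fold for Per3, 3.72-fold for Cry1, 3.17-fold for Ciart and 2.25-fold for Cry2. The lowest count of any of them was 110, for Ciart.

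**Figure D2:**
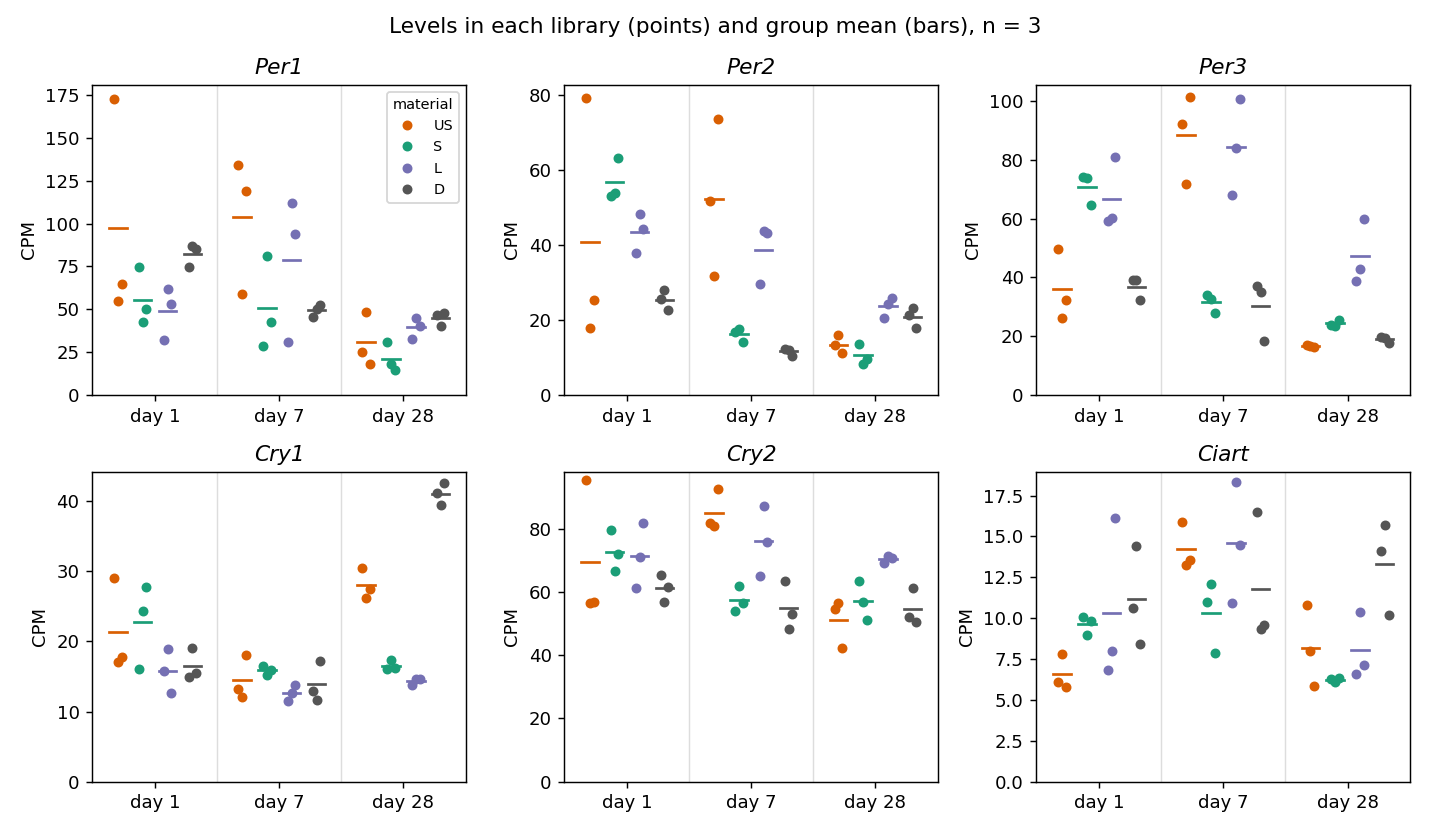
CPM of each clock repressor in every library (points) with the group mean (bars), in US, S, L and D lungs at days 1, 7 and 28 (n = 3 per group). Per3 stands above D in every US and L library at day 7 and every L library at day 28, and Cry1 is highest in the 3 D libraries of day 28.

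Set against D lungs of the same day, 8 of 54 gene-by-group differences passed the threshold (edgeR quasi-likelihood test, Benjamini-Hochberg adjusted p under 0.05 over all genes tested): 6 higher and 2 lower. Among the 6 higher are Per2 and Per3 in US lungs at day 7, on which the genes were chosen. That they passed is therefore no test, and the count is a description. At day 1 none of the 6 genes passed in US, S or L lungs, where 0.0887%, 0.0473% and 0.0237% of all genes did. At an unadjusted p under 0.05 there were 3 of the 6 in US (16.1% of all genes), 3 in S (21%) and 2 in L lungs (4.94%) of day 1, and DESeq2 called 0 in US (2.16% of the genes to which it gave an adjusted p), 2 in S (1.78%) and 1 in L lungs (0.185%). At day 7, Cry2 was past the threshold in US lungs, beside 2.09% of all genes. Per2 and Per3 were past it there too, but were known when the genes were chosen. In L lungs of day 7 Per2 and Per3 were past it, beside 0.154%. In S lungs of day 7 none was past it (0.45% of all genes), with 0 at an unadjusted p under 0.05 (9.33% of all genes) and 0 by DESeq2 (1%). At day 28, Cry1 fell in S lungs (0.237% of all genes passed), and in L lungs Cry1 fell while Per3 rose (2.15%). In US lungs of day 28 none passed (0.0237%), with 2 at an unadjusted p under 0.05 (6.02% of all genes) and 0 by DESeq2 (0.182%). The shares of all genes moved with single libraries. On leaving out 1 library of the groups compared, the share of day 1 ran from 0% to 5.17% in US lungs (highest without US replicate 2), 0% to 2.94% in S lungs (highest without S replicate 1) and 0% to 0.0291% in L lungs. That of day 7 ran from 0.105% to 17.7% in US lungs (lowest without US replicate 3, highest without US replicate 2), 0% to 0.536% in S lungs and 0.0699% to 0.146% in L lungs. That of day 28 ran from 0.00582% to 0.0583% in US lungs, 0.0699% to 0.192% in S lungs and 0.624% to 2.08% in L lungs. With only the groups compared in the fit, 10 genes passed in US lungs at day 7 in place of 353, and 1177 in S lungs at day 1 in place of 8. DESeq2 called 1233 genes in US lungs at day 7. The median log2 fold change of the 6 was 0.83 in US lungs of day 7 (0.01 over all genes), 0.54 in L lungs of day 7, -1.04 in S lungs of day 28 and -0.03 in L lungs of day 28 (each 0.00 over all genes). The 3 comparisons of a day share their D libraries, so their values are not independent of each other.

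**Figure D3:**
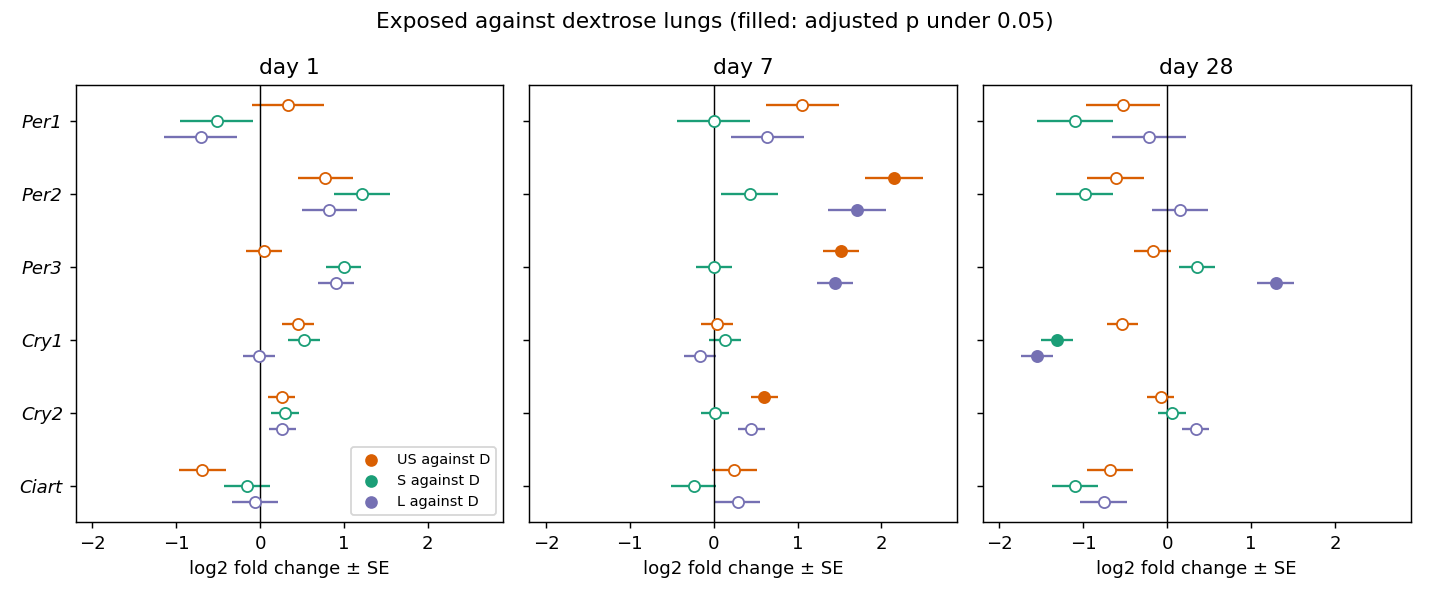
Fitted log2 fold change ± SE of each clock repressor in US, S and L lungs against D lungs at days 1, 7 and 28; filled points have an adjusted p under 0.05 over all genes. Per2 and Per3 in US lungs of day 7, which were known when the genes were chosen, reach 2.15 and 1.52, and Cry1 in S and L lungs of day 28 reaches -1.32 and -1.55.

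Per3 encodes the third member of the PER family. It was past the threshold in L lungs at day 7 and at day 28. The US difference at day 7 was also past it, but was known when the genes were chosen. At day 1 it had 74.3, 73.8 and 64.7 CPM in S lungs, 59.1, 60.3 and 81.1 CPM in L lungs and 49.5, 26.3 and 32.4 CPM in US lungs, against 39.2, 39.1 and 32.3 CPM in D lungs. S and L libraries all lay above all D libraries, while US libraries spread around them. None of these passed the threshold (log2 fold change 1.00 ± 0.21, adjusted p = 0.0611 in S; log2 fold change 0.90 ± 0.21, adjusted p = 0.15 in L; log2 fold change 0.05 ± 0.21, adjusted p = 0.939 in US by edgeR). Without US replicate 1 the US value was -0.28, and without L replicate 3 the L value was 0.72. Both S and L were called by DESeq2 (adjusted p = 0.00286 in S and 0.0225 in L), and edgeR called S when S replicate 1 was left out (adjusted p = 0.0317).

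At day 7 Per3 had 92.2, 71.7 and 101.3 CPM in US lungs, 68.2, 84.1 and 100.7 CPM in L lungs and 34, 32.7 and 27.9 CPM in S lungs, against 37.2, 35.2 and 18.5 CPM in D lungs. US and L libraries all lay above D, with a log2 fold change of 1.52 ± 0.21 (2.87-fold) in US lungs and a log2 fold change of 1.45 ± 0.21, adjusted p = 0.00046 (2.73-fold) in L lungs. S libraries lay within the range of D, with a log2 fold change of 0.00, with a 95% interval from -0.43 to 0.44. The L difference missed the threshold when only L and D libraries of day 7 were fitted (adjusted p = 0.0587). Counts and the deposited TPM part ways here: CPM was 5.13 and 4.62 times TPM in D replicates 1 and 2, against a median ratio of 3.175 over all libraries. The ratios of S replicate 2 (4.56) and L replicate 2 (4.14) of day 7 and L replicate 1 of day 28 (4.12) were also high. On the TPM scale D lungs had 7.26, 7.62 and 5.88 TPM and the US and L means were 4.00 and 3.40 times that of D.

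At day 28 Per3 had 38.9, 43.0 and 60.0 CPM in L lungs, 23.9, 23.5 and 25.7 CPM in S lungs and 16.9, 16.7 and 16.3 CPM in US lungs, against 19.8, 19.5 and 17.5 CPM in D lungs. The rise in L lungs was 2.45-fold (log2 fold change 1.29 ± 0.22, adjusted p = 0.000764) and kept its call in all 14 alternative fits. S libraries also lay just above D (log2 fold change 0.35 ± 0.22, adjusted p = 0.611) and US libraries just below (log2 fold change -0.17 ± 0.22, adjusted p = 0.971), neither past the threshold. In the order of the 12 group means, from US at day 7 (88.4 CPM) to US at day 28 (16.6 CPM), libraries of neighbouring groups overlapped except between S, D and US lungs of day 28, the 3 lowest.

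The sheets were also compared with each other, which uses no D library. Per3 was lower in S than in US lungs at day 7 (log2 fold change -1.52 ± 0.21, a description since the US values were known; 0.142% of all genes passed), higher in L than in S lungs at day 7 (log2 fold change 1.44 ± 0.21, adjusted p = 0.000484; 0.154%) and higher in L than in US lungs at day 28 (log2 fold change 1.46 ± 0.22, adjusted p = 0.00047; 0.515%). Both comparisons of L held their call in all 14 alternative fits. L and US lungs at day 7 gave a log2 difference of -0.07, with a 95% interval from -0.50 to 0.35, and no clock repressor passed there (0.00592% of all genes; at an unadjusted p under 0.05, 0 of the 6 beside 15% of all genes; 0 by DESeq2, beside 0.0178%). At day 28 L against S gave a log2 fold change of 0.94 ± 0.21, adjusted p = 0.0974, and no clock repressor passed (0.0651% of all genes; at an unadjusted p under 0.05, 2 of the 6 beside 3.76%; 1, Per3, by DESeq2, beside 0.219%). At day 1 no clock repressor passed between sheets: 0.0177% of all genes did for S against US and 0% for L against US and for L against S. At an unadjusted p under 0.05 there was 1 for S against US (13.7% of all genes), 4 for L against US (6.27%) and 1 for L against S (10.4%), and DESeq2 called Per3 for S against US (0.903% of its genes) and no clock repressor for L against US (0.126%) or L against S (0%).

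Per2 encodes a core PER protein, and the gene also answers to glucocorticoids. At day 1 it had 79.2, 17.9 and 25.4 CPM in US lungs, 53.2, 53.9 and 63.4 CPM in S lungs and 37.8, 48.4 and 44.4 CPM in L lungs, against 25.6, 28.1 and 22.6 CPM in D lungs. S and L libraries lay above all D libraries, and in US lungs replicate 1 alone did. None passed the threshold (log2 fold change 1.21 ± 0.33, adjusted p = 0.14 in S, log2 fold change 0.82 ± 0.33, adjusted p = 0.874 in L and a log2 fold change of 0.78 ± 0.33, adjusted p = 0.241 in US lungs). Without US replicate 1 the US value was -0.18, and without US replicate 2 it was 1.14 with an adjusted p of 0.0266. Without L replicate 3 the L value was 0.78. In S lungs DESeq2 called Per2, which edgeR did not, beside 1.78% of its genes.

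At day 7 Per2 had 51.8, 31.8 and 73.7 CPM in US lungs, 16.8, 17.7 and 14.2 CPM in S lungs and 29.5, 43.6 and 43.3 CPM in L lungs, against 12.4, 12.1 and 10.5 CPM in D lungs. Libraries of all 3 sheet groups lay above D. The difference was a log2 fold change of 2.15 ± 0.34 (4.44-fold) in US and a log2 fold change of 1.71 ± 0.34, adjusted p = 0.0189 (3.27-fold) in L lungs, while S lungs gave a log2 fold change of 0.43 ± 0.34, adjusted p = 0.749. The L call depended on single libraries: the adjusted p was 0.103, 0.0942 and 0.175 without D replicate 1, 2 or 3, and 0.0782 and 0.079 without L replicate 2 or 3; on log2(TPM + 1) it was 0.0623. Per2 was lower in S than in US lungs at day 7 (log2 fold change -1.72 ± 0.33, again a description).

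At day 28 Per2 had 13.4, 15.9 and 11.1 CPM in US lungs, 13.6, 8.33 and 9.71 CPM in S lungs and 20.5, 24.4 and 26.0 CPM in L lungs, against 21.3, 23.3 and 17.9 CPM in D lungs. US and S libraries all lay below D, and L libraries overlapped D. None passed the threshold (log2 fold change -0.99 ± 0.34, adjusted p = 0.284 in S, log2 fold change -0.61 ± 0.34, adjusted p = 0.839 in US and a log2 fold change of 0.15 ± 0.33, adjusted p = 0.839 in L lungs). The order of its group means ran from S at day 1 (56.8 CPM) to S at day 28 (10.6 CPM), with no overlap between neighbours in 2 of 11 steps: from L at day 7 to D at day 1, and from D at day 28 to S at day 7.

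Per1, the PER gene best known for its fast answer to outside signals, had the widest range over libraries, and none of its differences passed the threshold. At day 1 it had 173, 54.8 and 64.6 CPM in US lungs, 74.5, 42.4 and 50.1 CPM in S lungs and 32.1, 61.9 and 53.2 CPM in L lungs, against 74.8, 87.0 and 85.3 CPM in D lungs. Apart from US replicate 1, all exposed libraries were below the lowest D library. The log2 fold change was 0.33 ± 0.43 in US lungs (adjusted p = 0.732) and -0.42 without US replicate 1, and it was -0.52 ± 0.43 in S (0.482) and -0.71 ± 0.44 in L lungs (0.978), or -0.79 without L replicate 3.

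At day 7 Per1 had 134.2, 58.9 and 119.1 CPM in US lungs, 28.3, 80.9 and 42.3 CPM in S lungs and 30.7, 111.8 and 93.9 CPM in L lungs, against 45.4, 50.4 and 52.3 CPM in D lungs. US libraries were above all D libraries (log2 fold change 1.06 ± 0.44, adjusted p = 0.132), and the difference passed only when US replicate 2, the lowest, was left out (1.34, adjusted p = 0.0418). S and L libraries lay on both sides of D. The 14 glucocorticoid-induced genes summed to 1982, 995 and 1747 CPM in US lungs of day 7, with the low value in the same library as the low Per1, against 1143 to 1412 CPM in D lungs; their part in the Per1 values was not tested. At day 28 Per1 had 25.2, 48.6 and 18.2 CPM in US lungs, 30.6, 17.8 and 14.3 CPM in S lungs and 32.7, 45.1 and 40.4 CPM in L lungs, against 46.6, 39.9 and 47.7 CPM in D lungs. S libraries lay below D (log2 fold change -1.10 ± 0.45, adjusted p = 0.394), and US and L libraries overlapped it. In the order of the 12 means every pair of neighbours overlapped.

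Cry1, a strong repressor of the loop as a protein, was past the threshold against D at day 28 and not at day 1 or 7. At day 28 it had 30.4, 26.2 and 27.4 CPM in US lungs, 16.1, 17.4 and 16.2 CPM in S lungs and 13.7, 14.6 and 14.6 CPM in L lungs, against 41.1, 39.4 and 42.6 CPM in D lungs. All 9 exposed libraries lay below all 3 D libraries. Cry1 fell to 0.401 of the D level in S lungs (log2 fold change -1.32 ± 0.19, adjusted p = 0.000338) and to 0.342 of it in L lungs (log2 fold change -1.55 ± 0.19, adjusted p = 1.59e-05), and both calls held in all 14 alternative fits. In US lungs the difference did not pass the threshold (log2 fold change -0.54 ± 0.19, adjusted p = 0.595). Cry1 was lower in L than in US lungs (log2 fold change -1.01 ± 0.19, adjusted p = 0.0066), a call lost without L replicate 1 (0.0587). S against US gave a log2 fold change of -0.78 ± 0.19, adjusted p = 0.392, and no gene passed in that comparison (0% of all genes; at an unadjusted p under 0.05, 2 clock repressors beside 5.44%; 0 by DESeq2, beside 0.0414%). In the order of its group means, D at day 28 (41.1 CPM) came first and L at day 7 (12.6 CPM) last, and the step from D to US lungs of day 28 was the 1 of 11 without overlap.

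No Cry1 difference from D passed at day 1 or 7. At day 1 it had 29.0, 17.0 and 17.8 CPM in US lungs, 16.1, 24.3 and 27.8 CPM in S lungs and 15.8, 18.9 and 12.7 CPM in L lungs, against 14.9, 19.0 and 15.5 CPM in D lungs. The ranges overlapped. The log2 fold change in US lungs was 0.45, and 0.13 without US replicate 1. In L lungs it was -0.01, and 0.10 without L replicate 3. S lungs passed only without S replicate 1 (0.72, adjusted p = 0.0389). At day 7 it had 13.3, 12.1 and 18.1 CPM in US lungs, 16.5, 15.2 and 16.0 CPM in S lungs and 11.46, 12.7 and 13.8 CPM in L lungs, against 13.0, 11.6 and 17.2 CPM in D lungs. The day 7 log2 fold change was 0.04, with a 95% interval from -0.36 to 0.43 in US lungs; 0.14, with a 95% interval from -0.25 to 0.53 in S lungs; and -0.16, with a 95% interval from -0.56 to 0.23 in L lungs.

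D lungs themselves changed over time in Cry1. It had 14.9, 19.0 and 15.5 CPM at day 1, 13.0, 11.6 and 17.2 CPM at day 7 and 41.1, 39.4 and 42.6 CPM at day 28. It was higher in D lungs at day 28 than at day 1 (log2 fold change 1.33 ± 0.19, adjusted p = 0.000592; 0.0769% of all genes passed) and than at day 7 (log2 fold change 1.56 ± 0.19, adjusted p = 4.83e-05; 15.6%), in all 14 alternative fits. L lungs had group means of 15.8 CPM at day 1, 12.6 CPM at day 7 and 14.3 CPM at day 28. The day after dosing, the age of the mice and any difference between collections cannot be told apart here. Per3 was lower in D lungs at day 28 than at day 7 (log2 fold change -0.68 ± 0.22, adjusted p = 0.0371), but on log2(TPM + 1) this was -0.15 (adjusted p = 0.666), and without D day 7 replicate 1 or 2 it was -0.51 (adjusted p = 0.253) and -0.56 (0.125), the 2 libraries with the highest ratio of Per3 CPM to TPM. The call was also lost without D day 28 replicate 1, 2 or 3 (0.0753, 0.0866 and 0.101). Every D library of day 28 also lay below every D library of day 1 in Per3 (means of 18.9 and 36.9 CPM), a log2 fold change of -0.95 ± 0.22 that did not pass (adjusted p = 0.142) by edgeR. DESeq2 called it, beside 0.175% of its genes. Between days 7 and 1 no gene passed in D lungs (0% of all genes; at an unadjusted p under 0.05, 1 clock repressor, Per2, beside 24.2%; 0 by DESeq2, beside 0.455%).

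Cry2, the second cryptochrome, had the narrowest range over libraries. At day 7 it had 81.7, 80.7 and 92.4 CPM in US lungs, 54.1, 61.9 and 56.5 CPM in S lungs and 65.1, 87.2 and 75.9 CPM in L lungs, against 63.5, 48.4 and 53.1 CPM in D lungs. US and L libraries lay above D and S libraries overlapped it. It rose 1.52-fold in US lungs (log2 fold change 0.60 ± 0.16, adjusted p = 0.0455), a call close to the threshold: the adjusted p was 0.142 and 0.139 without D replicate 1 or 2, and 0.115 and 0.289 without US replicate 1 or 3. In L lungs the log2 fold change was 0.45, with a 95% interval from 0.12 to 0.78 (adjusted p = 0.734).

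At day 1 Cry2 spanned 56.4 to 95.4 CPM in US lungs, 66.6 to 79.6 CPM in S lungs and 61.2 to 81.8 CPM in L lungs, against 56.8 to 65.3 CPM in D lungs. None passed, and the log2 fold change in US lungs was 0.26, and -0.07 without US replicate 1. In L lungs it was 0.26, and 0.13 without L replicate 3. At day 28 it spanned 42.4 to 56.4 CPM in US lungs, 51.1 to 63.4 CPM in S lungs and 69.2 to 71.2 CPM in L lungs, against 50.5 to 61.1 CPM in D lungs. L libraries lay above D at day 28 (log2 fold change 0.34 ± 0.16, adjusted p = 0.285) without passing. Its 12 group means ran from 84.9 CPM in US lungs at day 7 to 51.2 CPM in US lungs at day 28, and every pair of neighbours overlapped.

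Ciart, with the most E-boxes among the 5 genes whose promoter windows were searched, had the lowest counts, and none of its differences passed. At day 28 it had 10.8, 7.98 and 5.84 CPM in US lungs, 6.28, 6.07 and 6.36 CPM in S lungs and 6.57, 10.4 and 7.13 CPM in L lungs, against 14.1, 15.7 and 10.2 CPM in D lungs. S libraries lay below D, with the smallest spread of any group. The log2 fold change in S lungs was -1.10 ± 0.28 (adjusted p = 0.0957; 0.0194 by DESeq2, which called 0.949% of its genes, and 0.0427 with S and D libraries of day 28 alone), in L lungs -0.76 ± 0.28 (0.153) and in US lungs -0.69 ± 0.27 (0.724).

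At day 1 Ciart spanned 5.79 to 7.80 CPM in US lungs, 8.94 to 10.1 CPM in S lungs and 6.83 to 16.1 CPM in L lungs, against 8.42 to 14.4 CPM in D lungs. US libraries were below D (log2 fold change -0.69 ± 0.28, adjusted p = 0.222). Without US replicate 1 it was -0.66. In L lungs it was -0.06, and -0.56 without L replicate 3, the library with 16.1 CPM. At day 7 it spanned 13.2 to 15.9 CPM in US lungs, 7.85 to 12.1 CPM in S lungs and 10.95 to 18.3 CPM in L lungs, against 9.36 to 16.5 CPM in D lungs, and all ranges overlapped D. Every pair of neighbours in the order of its group means overlapped, from L at day 7 (14.6 CPM) to S at day 28 (6.24 CPM).

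Whether the difference from D itself changed over the days was tested as an interaction, and 7 of 54 values passed. The Cry1 difference was lower at day 28 than at day 1 in S lungs (by -1.84 ± 0.27 on the log2 scale, adjusted p = 0.00135; 0.195% of all genes passed) and in L lungs (-1.54 ± 0.27, 0.00904; 0.243%), both in all 20 alternative fits. In S lungs it was also lower at day 28 than at day 7 (-1.46 ± 0.27, adjusted p = 0.0265; 0.0296% of all genes), but 11 of 12 fits without 1 library and both TPM fits missed the threshold (adjusted p up to 0.141). The Per2 difference in S lungs was lower at day 28 than at day 1 (-2.2 ± 0.48, adjusted p = 0.0425), and passed in 6 of 20 alternative fits, with an adjusted p up to 0.147. For US lungs the values include the day 7 difference that was known when the genes were chosen, and are a description. Per3 at day 7 minus day 1 was 1.48 ± 0.30 (0.136% of all genes passed), past the threshold in only 9 of 20 alternative fits. At day 28 minus day 7 Per2 was -2.76 ± 0.48 and Per3 -1.69 ± 0.31 (0.136%), past it in 18 and 19 of 20. No clock repressor passed in the other 4 interactions, of US lungs at day 28 minus day 1 (0.0473% of all genes), S lungs at day 7 minus day 1 (0%) and L lungs at day 7 minus day 1 (0%) and day 28 minus day 7 (0%). At an unadjusted p under 0.05 these held 2 (10.8% of all genes), 1 (9.79%), 1 (3.33%) and 3 clock repressors (5.35%) in that order, and DESeq2 called 0 (0.455% of its genes), 0 (0.13%), 0 (0.0342%) and 1, Cry1 (0.0651%).

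The other genes of the loop are given from lists drawn up with results of these data known, as counts beside the share of all genes above. Of Arntl, Clock and Npas2, whose proteins the repressors act on, none rose in any comparison with D. Npas2 was called lower in S and L lungs at day 1, Npas2 and Arntl in US and L lungs at day 7, and all 3 in L lungs at day 28. Of 8 genes listed as other clock repressors, 2 were higher in S and L lungs at day 1 (Bhlhe40 and Bhlhe41). At day 7, 4 were higher in US (both Nr1d genes and both Bhlhe genes), 1 in S (Bhlhe41) and 3 in L lungs (Nr1d2 and both Bhlhe genes). At day 28, 4 were higher in S (both Nr1d genes, Bhlhe41 and Tipin) and 5 in L lungs (those 4 and Bhlhe40). Tipin is on the list, but a role for it as a clock repressor is not shown here. Nfil3, a D-box repressor, was lower in L lungs at day 28. Bhlhe40 and Bhlhe41 encode repressors that compete for E-boxes. Of 7 measured clock outputs, 2 were higher in S lungs at day 1 (Hlf and Tef), 4 in US (Dbp, Tef, Hlf and Wee1) and 3 in L lungs (Dbp, Tef and Hlf) at day 7, and the same 3 in L lungs at day 28. The remaining lists of the PER and CRY machinery held few calls. Of 12 kinases and phosphatases acting on PER and CRY, 1 was higher (Prkaa2, US at day 7), of 11 ubiquitin ligase parts and deubiquitinases 0 passed, and of 10 partners of the PER complex 1 was lower (Sfpq, L at day 28). Of 12 immediate early genes induced by cAMP or serum, 1 was higher in S lungs at day 7 (Atf3) and 2 were lower in L lungs at day 28 (Nr4a3 and Crem).

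Npas2, the partner of ARNTL, had 1.51, 2.46 and 1.26 CPM in US lungs and 1.82, 1.79 and 2.25 CPM in L lungs at day 7, against 10.5, 7.8 and 16.8 CPM in D lungs (log2 fold change -2.78 ± 0.32, adjusted p = 2.5e-05 in US, and -2.60 ± 0.32, 2.48e-05 in L). At day 28 Nr1d1, which encodes the REV-ERB alpha repressor of Cry1, had 52.7, 58.8 and 29.8 CPM in US lungs, 150.4, 102.8 and 71.1 CPM in S lungs and 213, 224 and 199 CPM in L lungs, against 14.6, 16.9 and 12.3 CPM in D lungs. At this day every exposed library exceeded every D library, and the order of groups was the reverse of that of Cry1. The log2 fold change was 2.88 ± 0.39 in S (adjusted p = 0.00016) and 3.83 ± 0.40 in L lungs (1.01e-06). In US lungs it was 1.71 ± 0.38 and did not pass (0.137). The reverse order was not seen at day 7. Nr1d1 then had 294.5, 255.7 and 304.5 CPM in US lungs and 222.0, 303.2 and 253.8 CPM in L lungs. S lungs had 110.8, 191.2 and 141.0 CPM and D lungs 144.6, 108.9 and 67.9 CPM. Mean Cry1 of that day was 14.5 CPM in US, 12.6 CPM in L, 15.9 CPM in S and 13.9 CPM in D lungs. Dbp, which acts on D-boxes such as those found in the Per3 window, had 60.4, 48.9 and 78.5 CPM in L lungs at day 28, against 3.88, 3.02 and 3.61 CPM in D lungs (4.13 ± 0.59, adjusted p = 9.34e-05). In D lungs Dbp had 23.8, 17.6 and 26.8 CPM at day 1 and 34.3, 30.8 and 8.90 CPM at day 7, above its day 28 level. These genes also cycle over the day, and the part of the collection hour in their joint pattern was not tested.

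Likeness over the 36 libraries is given as Pearson's r of log2 CPM, a description without a test, since libraries of a group share their treatment and day; 14712 genes averaging at least 1 CPM were ranked for each clock repressor. Per3 was most like Tef (r = 0.96, Spearman's rho 0.96) and least like Npas2 (r = -0.97, rho -0.96) and Arntl (r = -0.93). Within groups, after group means were subtracted, r was 0.79 for Per3 with Tef and -0.70 with Npas2. Tef also ranked first for Per2 (r = 0.90, within groups 0.88) and Cry2 (0.88, within groups 0.81). Cry1 was least like Nr1d1 (r = -0.84, rho -0.70, within groups -0.65). By day, r for this pair over 12 libraries was -0.68 at day 1, -0.31 at day 7 and -0.96 at day 28. Without the 2 libraries farthest from the median of the clock repressor, r was 0.96 for Per3 with Tef, -0.96 with Npas2 and -0.76 for Cry1 with Nr1d1.

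The 3 genes most like Per1 were Errfi1 (r = 0.87, within groups 0.81), Herpud1 (0.81) and Tsc22d3 (0.80, within groups 0.75). Of these, Errfi1 and Tsc22d3 are on the glucocorticoid-induced list. Likeness to Tsc22d3 was not confined to Per1. Within groups, r with Tsc22d3 was also 0.75 for Per2 (0.50 over all libraries). It was 0.58 for Cry2, 0.55 for Per3, 0.43 for Cry1 and 0.07 for Ciart. Tsc22d3 was the 1 of 14 glucocorticoid-induced genes called in a comparison with D, lower in S lungs at day 28 (-1.14 ± 0.25, adjusted p = 0.0413). No gene exceeded an r of 0.71 with Ciart, for which Aoc2 ranked first. Among the 6 themselves, Per2 with Cry2 (r = 0.84), Per2 with Per3 (0.82) and Per3 with Cry2 (0.81) were most alike, and Per3 with Cry1 was the most negative pair (-0.50, and 0.11 within groups). By day, r for Per3 with Cry1 over 12 libraries was 0.18 at day 1, -0.34 at day 7 and -0.77 at day 28.

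**Figure D4:**
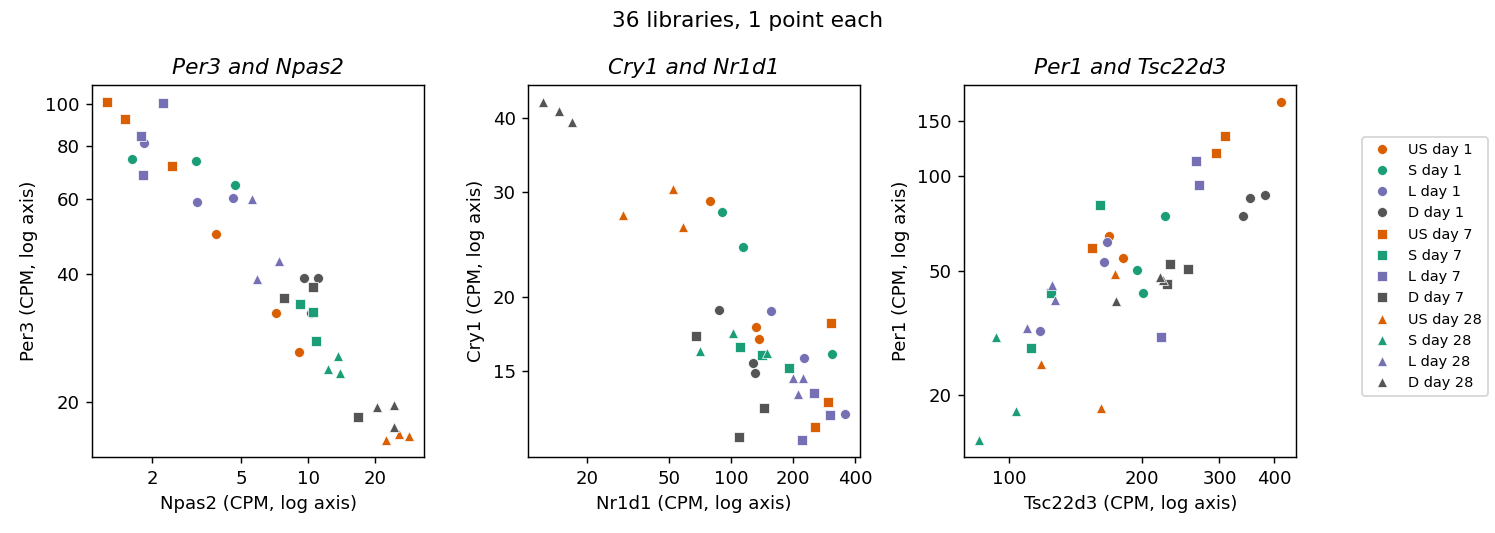
Per3 against Npas2, Cry1 against Nr1d1 and Per1 against Tsc22d3 in CPM on log axes, 1 point per library, with colour for the material and shape for the day (36 libraries). Per3 and Npas2 fall along 1 descending band (r = -0.97), Cry1 stands apart in the 3 D libraries of day 28 where Nr1d1 is lowest, and Per1 and Tsc22d3 ascend together (r = 0.80).

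Markers of other cell types, and genes induced by outside signals, moved with some of these results. At day 7 the summed level of 7 fat cell markers was 14.6 to 21.1 CPM in US lungs, 13.7 to 29.0 CPM in S lungs and 13.7 to 26.5 CPM in L lungs, against 27.5 to 51.1 CPM in D lungs. US and L libraries lay below all D libraries and 1 S library did not, and 1 of the 6 that could be tested, Adig, was called lower in US lungs; none of the 7 was at 0 in all 3 libraries of a group at that day. 8 cardiac or skeletal muscle markers summed to 72.7, 75.1 and 47.9 CPM in US lungs of day 7, all below the D libraries with 84.6, 83.1 and 121.4 CPM. The 12 immediate early genes summed to 247 to 357 CPM in L lungs of day 7, all below D with 383 to 543 CPM. 8 macrophage markers summed to 1244 to 2570.0 CPM in US, 1144 to 1954 CPM in S and 1213 to 2065 CPM in L lungs at day 7, against 817 to 1360.0 CPM in D lungs. At day 28 they summed to 1491 to 1702 CPM in US, 1556 to 1948 CPM in S and 1270.0 to 2371 CPM in L lungs, against 1100.0 to 1165 CPM in D lungs, with Mmp12, Gpnmb and Trem2 called higher in L lungs. Also at day 28, 9 T, NK and B cell markers summed to 252 to 283 CPM in L lungs, all above D with 169 to 220 CPM. The fat cell markers summed to 12.6 to 13.9 CPM in L lungs of day 28, all below D with 15.02 to 20.1 CPM. Lep was at 0 in the 3 L libraries. The muscle markers summed to 13.1 to 19.1 CPM in S lungs of day 28, all below D with 20.9 to 57.5 CPM. Nppa was at 0 in the 3 S libraries and Acta1 in the 3 D libraries. The glucocorticoid-induced genes summed to 822.5 to 911.5 CPM in S and 894.9 to 959.5 CPM in L lungs of day 28, all below D with 985 to 1325 CPM. Of the macrophage markers none was at 0 in all 3 libraries of a group at these days. The part of these markers in the Per2, Per3, Cry1 and Cry2 results was not tested.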

How the data were processed

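RNA was sequenced from 36 mouse lung libraries, 3 for each of 12 groups. Per the labels' protocols, poly(A) RNA was prepared with a strand-marking kit from RNA with an integrity number of at least 8. Tools named in the submitters' processing notes are STAR 2.5.1b, featureCounts 1.5.1, StringTie 1.3.3, bcl2fastq 2.19.1.403 and CASAVA, with GRCm38 and GRCh37 as builds; of the gene identifiers shared with a GRCm38 annotation, 83.3% had the same start and end, and so did 5 of the 6 genes, all but Cry1. Strand setting and annotation release are not stated there. The authors deposited raw read counts per gene for 46078 genes, and per library StringTie estimates of TPM, FPKM and mean coverage (signal) per gene, of which TPM was used.

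Counts were normalised by TMM and fitted in edgeR 4.0.16 (R 4.3.3) with 1 mean per group over all 36 libraries, after filterByExpr left 16903 genes. Quasi-likelihood F tests (two-sided) were adjusted by Benjamini-Hochberg over those genes, with a threshold of 0.05. CPM is the count scaled to the library total, so 1 CPM stood for 16.2 to 23.8 counts outside S day 7 replicate 2. Intervals and SEs are those of the fit. Likeness used log2 CPM with a prior count of 2 over genes averaging at least 1 CPM; the 3 highest and 3 lowest genes could be named, and from each list up to 5 genes past the threshold; 1 gene these rules name is not reported here. Libraries of a group differed by more than sampling noise (chi-square per degree of freedom at least 6.16). The test was checked on simulated counts.

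Alternatives were DESeq2 1.42.0, RLE size factors, only the groups compared, a replicate block, no filter on low counts, limma 3.58.1 on log2(TPM + 1) or log2(TPM + 0.1) for genes averaging at least 1 TPM, S day 7 replicate 2 thinned to the median depth, and each library left out. The genes, the lists and the tests were chosen with earlier results of these data known.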

Additional observations from a re-analysis of the deposited data

Results flagged for a closer look

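For 7 values the difference of exposed lungs from D lungs was itself different between days, by the interaction test of the edgeR fit. All are on the log2 scale, as the later day's difference minus the earlier day's. The Cry1 difference of S from D lungs changed by -1.84 from day 1 to day 28 and by -1.46 from day 7 to day 28. That of L from D lungs changed by -1.54 from day 1 to day 28. In D lungs Cry1 itself rose, with group means of 16.45, 13.93 and 41.05 CPM at days 1, 7 and 28. S lungs had 22.7, 15.9 and 16.5 CPM and L lungs 15.8, 12.6 and 14.3 CPM. The Per2 difference of S from D lungs changed by -2.2 from day 1 to day 28. For US lungs the day 7 values were known when the genes were chosen. There the Per3 difference changed by 1.48 from day 1 to day 7. From day 7 to day 28 that of Per2 changed by -2.76 and that of Per3 by -1.69. Not all of the 7 held in the alternative fits, as given with the interactions above.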

How the results depend on the processing

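Of 54 differences from D, 8 were called. Per2 and Per3 in US lungs at day 7, known when the genes were chosen, are left aside. Of the rest, Cry1 in S and L lungs and Per3 in L lungs at day 28 kept their call in all 14 alternative fits. Per3 in L lungs at day 7 kept it in 13, and Cry2 in US and Per2 in L lungs at day 7 in 8. These calls may not be independent of the choice of genes either, since it was made with earlier results of these data known. The number of clock repressors called differed from that reported by more than 1.5 times as follows. Against D at day 1 it was 1 in S lungs and 1 in L lungs with no filter on low counts, 2 in S and 1 in L lungs by DESeq2, and 2 in S lungs with only the groups compared, in place of 0. At day 7, only the groups compared gave 1 in US lungs in place of 3 and 1 in L lungs in place of 2, and log2(TPM + 1) gave 1 in L lungs. At day 28 in S lungs DESeq2 and only the groups compared each gave 2 in place of 1. Between sheets at day 1 DESeq2 gave 1 in place of 0. For the interactions of S lungs, only the groups compared gave 6 and both TPM scales 1 in place of 3; for those of L lungs, no filter and DESeq2 gave 2 and only the groups compared 3 in place of 1. Over days in D, only the groups compared gave 7 in place of 3. The cause of these changes was not tested. Leaving out 1 library at a time gave 0 to 1 against D in US and 0 to 2 in S lungs at day 1, 1 to 2 in L lungs at day 7, 0 to 2 between sheets at day 1 and 1 to 3 at day 28, and 0 to 4 for the interactions of US and 1 to 3 for those of S lungs.

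Signs changed in 39 values of 15 differences, none of them called, with an adjusted p of at least 0.58 and a size of at most 0.42. Outside leave-one-out fits these were, for Per1 in S lungs at day 7, 0.0039 with no filter, 0.0128 with only the groups compared and 0.0208 with the thinned library, where Per3 gave -0.0094. On log2(TPM + 1) and log2(TPM + 0.1), Per3 in US lungs at day 1 gave -0.0921 and -0.1032, Ciart in S lungs at day 1 0.0136 and 0.0206, and Ciart in L lungs at day 1 0.0396 and 0.0443. Without 1 library, values in US lungs at day 1 ran from -0.4162 to 0.6244 for Per1, -0.1776 to 1.1429 for Per2, -0.2823 to 0.2406 for Per3 and -0.0699 to 0.3999 for Cry2. At day 1 Ciart ran from -0.3096 to 0.0498 in S and -0.564 to 0.1469 in L lungs, and Cry1 from -0.1542 to 0.1006 in L lungs. At day 7 Cry1 ran from -0.1727 to 0.2032 in US and -0.2602 to 0.0142 in L lungs; in S lungs Per1 ran from -0.5227 to 0.2898, Per3 from -0.2552 to 0.1834, Cry2 from -0.0537 to 0.1401 and Ciart from -0.3722 to 0.0861. At day 28 Cry2 ran from -0.1627 to 0.0432 in US and -0.0154 to 0.147 in S lungs.

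Same-numbered libraries did not deviate together: in 0 of 21 comparisons did every pair correlate above 0.1 (r from -0.477 to 0.371). With the replicate block, Cry2 in US lungs at day 7 was 0.61 with an adjusted p of 0.0503 and Per2 in S lungs at day 28 minus day 1 had 0.0614. Per3 in US lungs at day 7 minus day 1, a description, was no longer past the threshold either. No other call against D changed. Ciart had the lowest count, 110.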
